A study of Mus musculus with 25 samples.

Results

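Transcripts of 10 chemokine genes were followed in mouse liver: Ccl2, Ccl7, Ccl6, Ccl24, Cxcl1, Cxcl2, Cxcl9, Cxcl10, Cxcl14 and Cxcl16. They were listed as chemokines of injured liver, with earlier results of these data known. Shares of members called, set beside those of all genes, therefore describe the list and do not test it. All 10 were found among the 56980 genes of the deposited count table. The series holds poly-A RNA sequencing of liver from 25 male C57BL/6J mice, which were 8 weeks old at the start and 20 weeks old at the end. Mice on the normal diet had a standard chow and drinking water. The others spent 12 weeks on FAT-MASH, a regimen that models metabolic dysfunction-associated steatohepatitis (fatty liver with inflammation) in mice. It joined a chow with 41% sucrose, 21.1% fat and 1.25% cholesterol, sugar water with 23.1 g/L fructose and 18.9 g/L glucose, and a weekly intraperitoneal injection of carbon tetrachloride, a liver toxin. Mannose, a hexose sugar, was dissolved in the water to 5% or 20%. Prevention groups drank it throughout the 12 weeks and therapy groups from the middle on, for 6 weeks.

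The first batch, as dated in the labels, held 18 libraries in 6 groups of 3 mice. These were normal diet, FAT-MASH without mannose, and the 4 FAT-MASH groups that had mannose at 1 of the doses and timings. The second batch held 7 libraries, all from mice on the normal diet: 2 without mannose, 2 with 5% and 3 with 20%. No mouse received the diet without the toxin or the toxin without the diet, so their contributions cannot be told apart. Mannose on the normal diet was measured only in the second batch. Levels are in CPM, counts brought to a common library total within a batch, and levels of the batches are kept apart. Error terms are the SD over mice for levels and the SE of the fit for log2 fold changes. A gene was called where the adjusted p of edgeR's quasi-likelihood test was under 0.05. That p was adjusted by the Benjamini-Hochberg method over all genes tested. The mannose groups share the same FAT-MASH or normal-diet libraries as controls, so their comparisons are not independent of one another.

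Chemokines are small secreted proteins that guide leukocytes along a gradient through G protein-coupled receptors on the leukocyte surface. In injured liver they are made by Kupffer cells, recruited macrophages, stellate cells, endothelium, biliary epithelium and stressed hepatocytes. Many of their genes are switched on by NF-kappaB after tumor necrosis factor or interleukin 1, or by IRF factors after interferon. Ccl2 and Ccl7 bind Ccr2 and draw monocytes, and Ccl6, found in rodents, binds Ccr1. Ccl24, an eotaxin, binds Ccr3 on eosinophils. Cxcl1 and Cxcl2 bind Cxcr2 and draw neutrophils. Cxcl9 and Cxcl10 are interferon-induced ligands of Cxcr3 on T cells. Cxcl14 has no settled receptor, and Cxcl16 is made as a membrane-bound protein that also acts as a scavenger receptor and binds Cxcr6.

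The genes lie on 3 chromosomes in the GRCm39 coordinates of the deposited table. Ccl2 (ENSMUSG00000035385.6, chr11:81926397-81928279) and Ccl7 (ENSMUSG00000035373.3, chr11:81936538-81938351) are neighbours with 8258 bases between them on the plus strand. Ccl6 (ENSMUSG00000018927.4, chr11:83478708-83483913) and Cxcl16 (ENSMUSG00000018920.12, chr11:70344809-70350810) are on the minus strand of the same chromosome. Chromosome 5 carries Cxcl1 (ENSMUSG00000029380.12, chr5:91039100-91040974) and Cxcl2 (ENSMUSG00000058427.11, chr5:91051730-91053797), with 10755 bases between them. It also carries Cxcl9 (ENSMUSG00000029417.10, chr5:92469206-92475938) and Cxcl10 (ENSMUSG00000034855.14, chr5:92494497-92496748), with 18558 bases between them. Ccl24 (ENSMUSG00000004814.11, chr5:135598791-135601903) lies farther along, and Cxcl14 (ENSMUSG00000021508.12, chr13:56436456-56444364) is alone on chromosome 13. Counting used no strand, and 4 members overlap a gene on the opposite strand whose reads cannot be told apart from theirs: Ccl2 with Gm17268, Ccl6 with E230016K23Rik, Cxcl10 with Art3 and Cxcl16 with Zmynd15.

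Library totals ranged from 31298299 to 56010646 counts (first batch) and from 35971380 to 49752882 (second batch). At this depth Ccl7 and Cxcl2 were near the lower limit: in the first-batch normal-diet libraries Ccl7 had 8, 0 and 6 counts and Cxcl2 had 6, 0 and 8. Of the 250 member counts 206 were even, and the counting command in the header sets no option for read pairs, so a count of 2 may be the mates of 1 fragment. A count of 0 allows up to 3 counts, which covers counting error only. The liver label was checked against the hepatocyte gene Alb, which stood at 46700 to 86700 CPM over all libraries. The library of 5% therapy replicate 3 was below its group's mean for all members (0 of 10 above), and 5% therapy replicate 2 and 20% prevention replicate 2 were each above theirs for 9 of 10. All 3 libraries are kept, and results that change without them are given both ways.

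Per kilobase of exon, Ccl6 was the most abundant member in the first batch, with a median of 14.3 CPM per kilobase over 18 libraries. Cxcl16 followed at 6.32, Cxcl1 at 4.13 and Cxcl9 at 4.03. Ccl7 at 0.809 and Cxcl2 at 0.483 were the scarcest. The members between were Cxcl10 at 2.67, Ccl2 at 2.44, Cxcl14 at 2.24 and Ccl24 at 1.68. Many of these neighbours are not separated by their spread: the Ccl2 values ran from 0.433 to 11.9 and those of Cxcl10 from 0.629 to 7.2 CPM per kilobase.

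**Figure D1:**
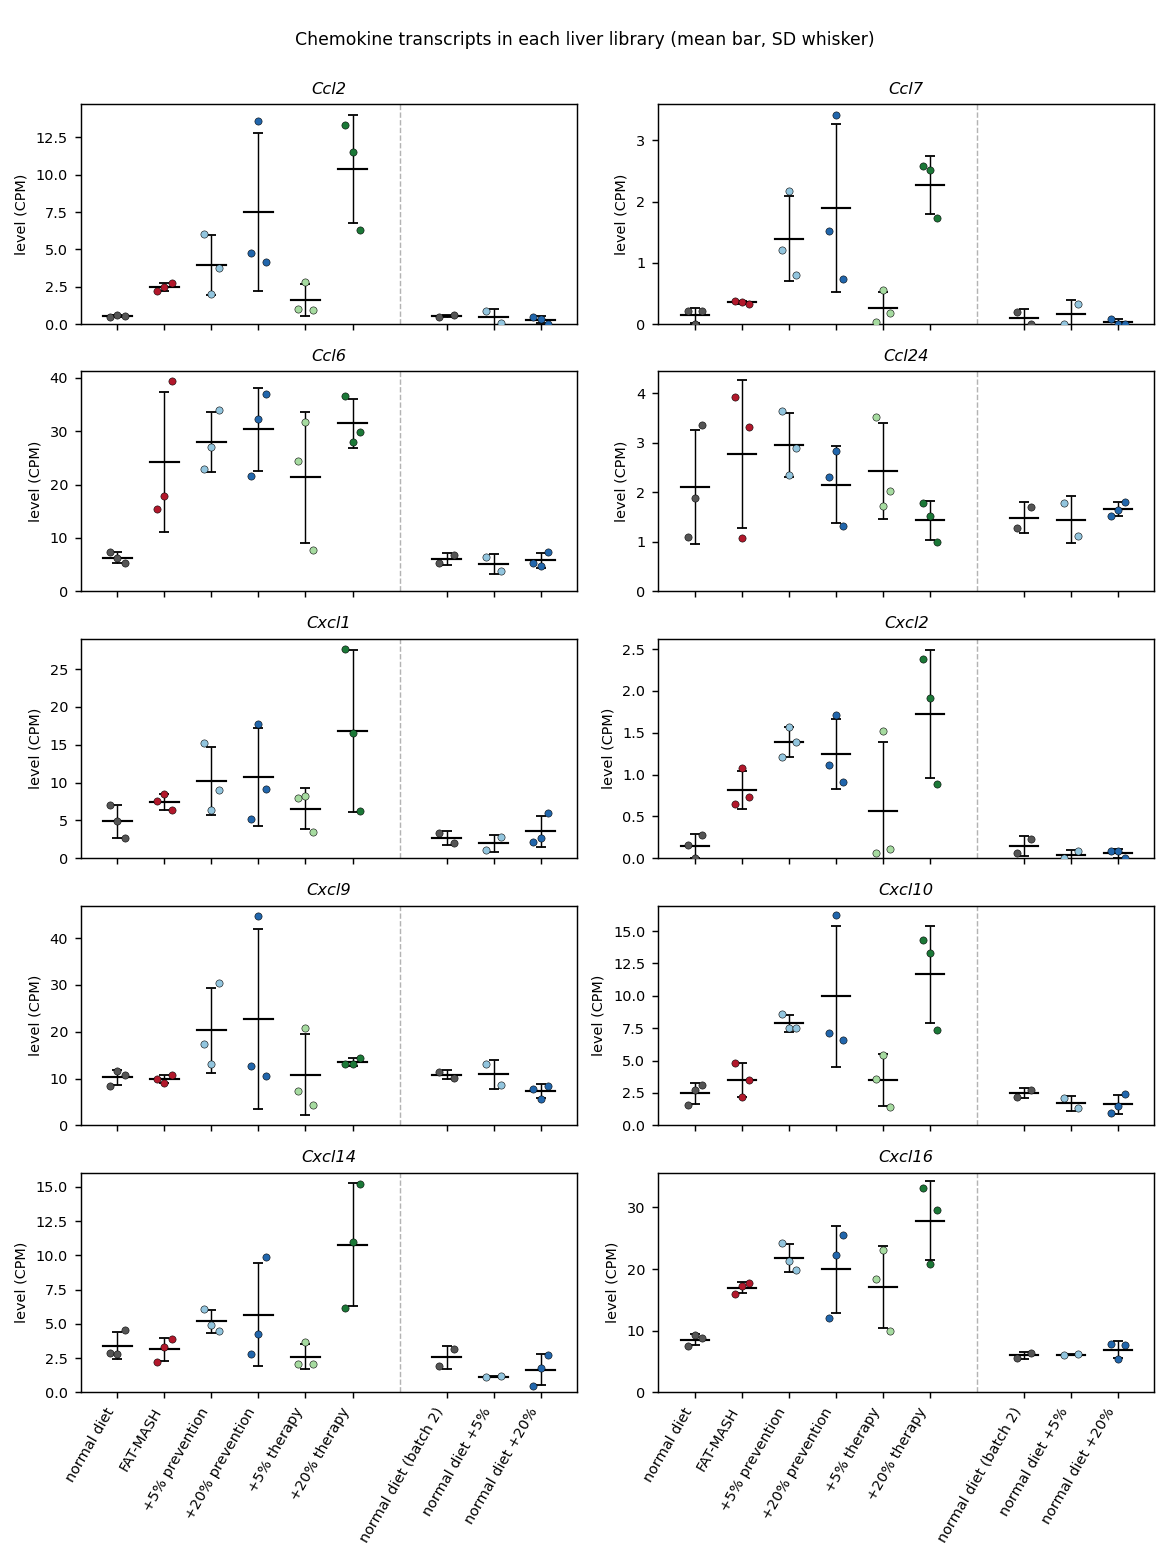
Level of each chemokine in every library, in CPM on a linear scale, by group, with the second batch to the right of the dashed line. Each point is 1 mouse, bars are group means and whiskers the SD. Ccl2, Ccl6 and Cxcl16 sit higher in all libraries of the regimen than in the first-batch normal-diet libraries, and Ccl2, Ccl7, Cxcl10 and Cxcl14 are high in the 20% therapy group.

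On the FAT-MASH regimen without mannose, the monocyte attractant Ccl2, the Ccr1 ligand Ccl6 and the membrane-bound Cxcl16 were higher than on normal diet. These were 3 of the 10 members, and the other 7 did not pass the test. Over all genes tested 7.81% were called higher in this comparison and 13.7% in either direction. In whole liver, more cells of a type and more transcript per cell cannot be told apart, here or in any result that follows.

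Ccl2 on normal diet stood at 0.493, 0.627 and 0.524 CPM. On FAT-MASH it stood at 2.21, 2.46 and 2.73 CPM (2.47 ± 0.26, SD, n = 3). The groups did not overlap, and the log2 fold change was 2.16 ± 0.53 (SE; edgeR adjusted p = 0.00993). Ccl6 was 7.29, 6.32 and 5.28 CPM on normal diet and 15.5, 17.9 and 39.4 CPM on FAT-MASH. The groups again did not overlap, although 1 FAT-MASH library was far above the other two, and the log2 fold change was 1.94 ± 0.39 (edgeR adjusted p = 0.00241). Cxcl16 was 7.51, 9.3 and 8.78 CPM on normal diet and 16, 17.3 and 17.7 CPM on FAT-MASH, a narrow range in both groups. Its log2 fold change was 0.99 ± 0.27 (edgeR adjusted p = 0.0173). The call was lost without normal-diet replicate 1 (0.89, edgeR adjusted p = 0.0768), normal-diet replicate 3 (1.00, 0.0507) or FAT-MASH replicate 3 (0.95, 0.0546), while those of Ccl2 and Ccl6 held in all 13 alternatives.

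For Ccl2, Ccl6 and Cxcl16 the separation held in every regimen library of the first batch, with or without mannose. The lowest of the 15 regimen values was 0.957 CPM for Ccl2, 7.81 CPM for Ccl6 and 9.93 CPM for Cxcl16, and all 3 came from 5% therapy replicate 3. Each lay above the highest of the 3 normal-diet values of its gene.

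The scarce members Ccl7 and Cxcl2 also showed no overlap between FAT-MASH and normal diet, but neither passed the test. Ccl7 had 20, 12 and 12 raw counts on FAT-MASH, and its log2 fold change was 1.36 ± 0.84 (edgeR adjusted p = 0.329). Cxcl2, a neutrophil attractant, had 34, 36 and 26 raw counts on FAT-MASH, and its log2 fold change was 2.51 ± 0.92 (edgeR adjusted p = 0.0805). These counts are too low to place either gene firmly.

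The 5 remaining members overlapped between the groups and were not called. The log2 fold change was 0.60 ± 0.50 for the neutrophil attractant Cxcl1, 0.51 ± 0.44 for Cxcl10 and 0.41 ± 0.46 for the eotaxin Ccl24. It was -0.06 ± 0.49 for Cxcl9 and -0.12 ± 0.41 for Cxcl14. The Cxcr3 ligand Cxcl9 was 9.88 ± 0.828 CPM on FAT-MASH and 10.3 ± 1.61 CPM on normal diet (SD, n = 3 each), so its means lay within the spread between mice. Over the 10 members the median log2 fold change was 0.79, against 0.03 over all genes tested.

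**Figure D2:**
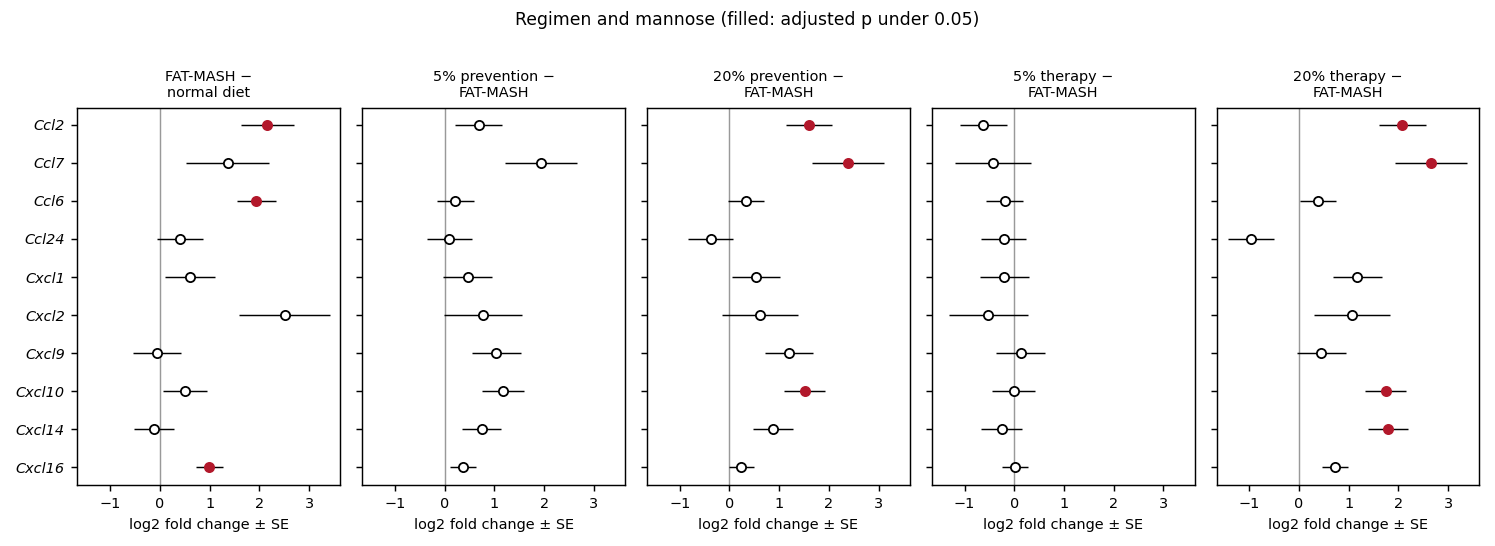
Log2 fold change of each chemokine with its SE for FAT-MASH against normal diet and for each mannose group against FAT-MASH (first batch, 3 mice a group); filled points have an adjusted p under 0.05. The 5% groups hold no filled point, 20% prevention holds Ccl2, Ccl7 and Cxcl10, and 20% therapy adds Cxcl14.

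Mannose at 20% on the regimen was accompanied by higher Ccl2, Ccl7 and Cxcl10 in both the prevention and the therapy group, compared with FAT-MASH alone. Cxcl14 was higher in the therapy group as well. No member was called lower in any mannose group. In all 3 libraries of the 20% therapy group the summed neutrophil markers were above (26.4 to 40.5 against 18.8 to 21.9 CPM) and the summed hepatocyte markers below (60500 to 68300 against 86000 to 96200 CPM) those of every FAT-MASH library, and the cholangiocyte sums overlapped (51.8 to 125 against 43.5 to 54.9 CPM). Their part in these results was not tested. Members called were 4 of 10 with 20% therapy (all genes 10.2% higher, 21.4% either way) and 3 of 10 with 20% prevention (all genes 6.83% higher, 15.1% either way). With 5% therapy edgeR called 0 of 10 (all genes 0.0358% either way), with 0 members at an unadjusted p under 0.05. With 5% prevention it called 0 of 10 (all genes 2.27% either way), with 3 members, Ccl7, Cxcl9 and Cxcl10, at an unadjusted p under 0.05. DESeq2 also called 0 of 10 in both 5% groups.

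Ccl2 in the 20% therapy group stood at 13.3, 11.5 and 6.33 CPM. In the 20% prevention group it stood at 4.77, 13.6 and 4.18 CPM. All 6 of these values lie above the highest FAT-MASH value, 2.73 CPM, and 1 prevention library is far above the other two. The log2 fold change against FAT-MASH was 2.08 ± 0.47 with 20% therapy (edgeR adjusted p = 0.0032). It was 1.60 ± 0.47 with 20% prevention (edgeR adjusted p = 0.0238).

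At the lower dose Ccl2 overlapped with FAT-MASH under both timings. With 5% prevention it was 6.02, 2.05 and 3.76 CPM, and the log2 fold change was 0.68 ± 0.47 (edgeR adjusted p = 0.536). With 5% therapy it was 1.02, 2.83 and 0.957 CPM, and the log2 fold change was -0.62 ± 0.48 (edgeR adjusted p = 0.917).

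Ccl7, the neighbour of Ccl2 and a ligand of the same receptor, was at 0.382, 0.36 and 0.338 CPM on FAT-MASH. It was at 2.58, 2.52 and 1.73 CPM with 20% therapy, from 126, 116 and 94 raw counts. All 3 therapy values were above all 3 FAT-MASH values, and the log2 fold change was 2.65 ± 0.72 (edgeR adjusted p = 0.0117). With 20% prevention it was 1.52, 3.41 and 0.741 CPM, and with 5% prevention 1.21, 2.17 and 0.809 CPM. Neither prevention group overlapped with FAT-MASH, and the log2 fold changes were 2.38 ± 0.72 (edgeR adjusted p = 0.0292) and 1.94 ± 0.72 (edgeR adjusted p = 0.177). With 5% therapy Ccl7 had 1, 22 and 10 raw counts, a range that takes in the FAT-MASH counts.

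Cxcl10, an interferon-induced ligand of Cxcr3, was 4.79, 2.16 and 3.47 CPM on FAT-MASH. With 20% therapy it was 14.3, 13.3 and 7.38 CPM, and with 20% prevention 7.11, 16.2 and 6.56 CPM. No value of these 2 groups fell to the FAT-MASH range. The log2 fold change was 1.74 ± 0.42 with 20% therapy (edgeR adjusted p = 0.00565) and 1.51 ± 0.42 with 20% prevention (edgeR adjusted p = 0.0193). With 5% prevention it was 8.62, 7.49 and 7.49 CPM, also without overlap, but the log2 fold change of 1.17 ± 0.42 was not called (edgeR adjusted p = 0.166). With 5% therapy it was 3.6, 5.46 and 1.42 CPM, a range that takes in that of FAT-MASH.

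The 3 calls of 20% prevention rested on single libraries. Without 20% prevention replicate 2 the log2 fold change was 0.86 for Ccl2, 1.64 for Ccl7 and 0.97 for Cxcl10, and 0 of 10 members were called. Leaving out FAT-MASH replicate 2 or 3 also left 0 called, with Ccl2 at 1.61 and 1.69, Ccl7 at 2.38 and 2.34 and Cxcl10 at 1.27 and 1.51. Leaving out FAT-MASH replicate 1 left 1, Cxcl10, with Ccl2 at 1.53 (edgeR adjusted p = 0.0875) and Ccl7 at 2.43 (edgeR adjusted p = 0.0849). The calls for Ccl2, Ccl7, Cxcl10 and Cxcl14 with 20% therapy were kept under all 12 alternatives run for that comparison.

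Cxcl9, the gene next to Cxcl10 with the same receptor, was not called in any mannose group against FAT-MASH. It was 13.1, 13.1 and 14.4 CPM with 20% therapy and 9.88, 9.05 and 10.7 CPM on FAT-MASH, which do not overlap, but the log2 fold change of 0.45 ± 0.49 was not called (edgeR adjusted p = 0.572). With 20% prevention it was 12.7, 44.8 and 10.5 CPM and with 5% prevention 17.3, 13.1 and 30.5 CPM. One library of each group was far above the rest, and the log2 fold changes of 1.2 ± 0.49 and 1.04 ± 0.49 were not called. Without 20% prevention replicate 3 the former was 1.55 and passed (edgeR adjusted p = 0.0423). The difference between the 2 genes was not tested. Their promoter windows, the 250 bases before the start in RefSeq (GRCm38.p6, 5′ to 3′), are shown because these neighbours share a receptor. Capitals mark matches to an NF-kappaB motif or to an IRF motif (TTTC, a pair of any bases, TTTC).
Cxcl10 (chr5:92348890-92349139, minus strand): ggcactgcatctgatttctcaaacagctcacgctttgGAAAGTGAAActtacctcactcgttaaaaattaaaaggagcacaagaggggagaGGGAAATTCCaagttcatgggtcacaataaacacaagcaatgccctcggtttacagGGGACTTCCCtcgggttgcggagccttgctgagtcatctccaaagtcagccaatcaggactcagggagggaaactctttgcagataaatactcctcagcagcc
Cxcl9 (chr5:92328080-92328329, minus strand): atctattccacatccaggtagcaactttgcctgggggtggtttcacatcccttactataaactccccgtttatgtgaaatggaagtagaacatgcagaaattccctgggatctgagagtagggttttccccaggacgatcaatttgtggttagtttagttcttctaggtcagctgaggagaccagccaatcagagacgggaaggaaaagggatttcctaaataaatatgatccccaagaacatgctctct

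The Cxcl10 window holds 2 NF-kappaB matches, GGGAAATTCC at positions -159 to -150 from the start and GGGACTTCCC at -103 to -94. It also holds 1 IRF match on the minus strand, GAAAGTGAAA at -213 to -204. The Cxcl9 window holds no match to these motifs or to TTCNNNGAA, a STAT motif. All motifs were searched on both strands. Of 32841 windows of this length 3.9% hold the NF-kappaB motif, 2.98% the IRF motif and 7.02% the STAT motif. A match describes letters only, and no match says only that these letters are not in this window.

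Cxcl14 was called with 20% therapy and not with 20% prevention. It was 2.21, 3.3 and 3.89 CPM on FAT-MASH and 6.19, 11.0 and 15.2 CPM with 20% therapy. The groups did not overlap, and the log2 fold change was 1.79 ± 0.40 (edgeR adjusted p = 0.00303). With 20% prevention it was 2.81, 4.29 and 9.91 CPM, so 1 library lay far above the FAT-MASH range and 1 within it. The log2 fold change was 0.87 ± 0.40 (edgeR adjusted p = 0.163). With 5% prevention it was 6.12, 4.95 and 4.51 CPM, all above FAT-MASH, and with 5% therapy 2.1, 3.69 and 2.07 CPM, within or below it, and neither was called. Its group mean was 3.41 ± 0.989 CPM on normal diet, 3.13 ± 0.849 CPM on FAT-MASH and 10.8 ± 4.49 CPM with 20% therapy (SD, n = 3 each). Its RefSeq window is shown because its motifs differ from those of Cxcl10: it holds a STAT match, TTCTGAGAA at -191 to -183, and an IRF match on the minus strand, GAAACAGAAA at -172 to -163, and no NF-kappaB match.
Cxcl14 (chr13:56296552-56296801, minus strand): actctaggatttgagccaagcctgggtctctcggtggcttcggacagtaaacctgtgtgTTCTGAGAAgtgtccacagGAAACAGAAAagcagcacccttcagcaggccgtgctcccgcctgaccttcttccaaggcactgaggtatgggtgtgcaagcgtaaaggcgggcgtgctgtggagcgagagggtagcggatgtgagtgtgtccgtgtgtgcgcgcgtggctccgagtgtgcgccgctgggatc

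The neutrophil attractants Cxcl1 and Cxcl2 were not called in any comparison of a mannose group with FAT-MASH. Cxcl1 with 20% therapy was 27.7, 16.6 and 6.24 CPM, and FAT-MASH was 7.56, 8.45 and 6.37 CPM. Of the therapy libraries 2 were above FAT-MASH and 1 was below all of it, and the log2 fold change was 1.17 ± 0.49 (edgeR adjusted p = 0.0965). Without that library it was 1.57 and passed (edgeR adjusted p = 0.0221). Cxcl2 ranged from 0.886 to 2.38 CPM with 20% therapy and from 0.649 to 1.08 CPM on FAT-MASH, with a log2 fold change of 1.07 ± 0.77. With 5% prevention Cxcl2 was 1.21 to 1.57 CPM, above every FAT-MASH library. In 5% therapy Cxcl2 had 2, 60 and 6 raw counts, so 1 library carried nearly all of that group's reads. The windows of this pair are shown because both hold the same NF-kappaB match, GGGAATTTCC, at -71 to -62 in Cxcl1 and -97 to -88 in Cxcl2. Its reverse complement matches again 1 base further on, and the capitals mark the span of both. Neither window holds the STAT or IRF motif.
Cxcl1 (chr5:90890995-90891244, plus strand): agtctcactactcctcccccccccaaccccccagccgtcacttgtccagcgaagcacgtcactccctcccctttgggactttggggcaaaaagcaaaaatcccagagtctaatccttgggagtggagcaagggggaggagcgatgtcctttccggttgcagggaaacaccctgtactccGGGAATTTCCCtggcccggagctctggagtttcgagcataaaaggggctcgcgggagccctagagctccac
Cxcl2 (chr5:90903649-90903898, plus strand): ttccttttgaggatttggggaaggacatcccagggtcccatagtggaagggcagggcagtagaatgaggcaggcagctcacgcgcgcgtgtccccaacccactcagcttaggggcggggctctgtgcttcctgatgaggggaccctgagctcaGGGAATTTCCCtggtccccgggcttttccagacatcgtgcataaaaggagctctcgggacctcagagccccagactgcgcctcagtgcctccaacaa

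Ccl6 and Cxcl16, which were higher on the regimen, were not called in any mannose group against FAT-MASH. Ccl6 was 36.7, 28.0 and 29.8 CPM with 20% therapy, inside the FAT-MASH range, with a log2 fold change of 0.38 ± 0.37. Cxcl16 was 33.2, 20.8 and 29.5 CPM with 20% therapy, all above FAT-MASH, and its log2 fold change of 0.72 ± 0.26 just missed the threshold (edgeR adjusted p = 0.0564). It passed in 5 of 12 alternatives, among them the fit without 20% therapy replicate 2 (0.89, edgeR adjusted p = 0.0277). Ccl24 was the one member with a lower mean, 1.43 ± 0.40 CPM with 20% therapy and 2.78 ± 1.5 CPM on FAT-MASH (SD, n = 3 each), and its log2 fold change of -0.96 ± 0.46 was not called (edgeR adjusted p = 0.151). Without FAT-MASH replicate 2, whose Ccl24 was the lowest of its group, it was -1.33 and passed (edgeR adjusted p = 0.0432).

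Set against normal diet rather than FAT-MASH, 8 of 10 members were called higher with 20% therapy, all but Ccl24 and Cxcl9 (all genes 19.4% higher). The largest log2 fold changes were 4.23 ± 0.54 for Ccl2 (edgeR adjusted p = 5.56e-06) and 4.01 ± 0.81 for Ccl7 (edgeR adjusted p = 0.000658). In this comparison Cxcl1 was called at 1.78 ± 0.50 (edgeR adjusted p = 0.00878) and Cxcl2 at 3.58 ± 0.92 (edgeR adjusted p = 0.00463). With 20% prevention 6 members were called (all genes 18.2% higher, 33.3% either way) and 6 with 5% prevention (all genes 12.3% higher), in both cases Ccl2, Ccl7, Ccl6, Cxcl2, Cxcl10 and Cxcl16. With 5% therapy only Ccl6 and Cxcl16 were called among the 10 (all genes 7.04% higher), and Ccl2 missed the threshold at 1.54 ± 0.54 (edgeR adjusted p = 0.0674). Without 5% therapy replicate 3 Ccl2 was called too, at 1.82 (edgeR adjusted p = 0.0408). Ccl24 and Cxcl9 were called in none of the 4 mannose groups of the regimen against normal diet. Some calls of this comparison turned on 1 library. Cxcl16 with 5% therapy was lost without normal-diet replicate 1 (0.91) or 3 (1.02), or without 5% therapy replicate 1 (0.94) or 2 (0.72). Cxcl2 was lost without normal-diet replicate 2, the library with 0 counts, in both prevention groups (2.63 with 5% and 2.48 with 20%). Cxcl10 with 5% prevention was lost without normal-diet replicate 1 (1.42) and Cxcl1 with 20% therapy without its replicate 1 (1.22). Without 20% prevention replicate 1 both Cxcl1 (1.44) and Cxcl9 (1.42) were called, and without replicate 3 Cxcl9 was (1.48).

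A direct comparison of the doses on the regimen, averaged over both timings, called Ccl2, Ccl7, Cxcl10 and Cxcl14 higher at 20% than at 5% (4 of 10 members, all genes 8.12% higher and 17% either way). The log2 difference between doses was 1.81 ± 0.33 for Ccl2 (edgeR adjusted p = 0.000789) and 1.76 ± 0.49 for Ccl7 (edgeR adjusted p = 0.0176). It was 1.05 ± 0.29 for Cxcl10 (edgeR adjusted p = 0.0181) and 1.09 ± 0.28 for Cxcl14 (edgeR adjusted p = 0.0106). Without 20% prevention replicate 2 the calls of Ccl7 (1.39, edgeR adjusted p = 0.0757) and Cxcl10 (0.77, edgeR adjusted p = 0.0759) were lost. Without 5% therapy replicate 2 Cxcl2 was called as well, at 1.99 (edgeR adjusted p = 0.00706).

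The doses were also compared within each timing, a split added after the data had been seen. Within therapy the same 4 members were called (all genes 8.33% higher) and none of their libraries overlapped between doses, with log2 differences of 2.69 ± 0.49 for Ccl2, 3.08 ± 0.74 for Ccl7, 1.75 ± 0.43 for Cxcl10 and 2.04 ± 0.41 for Cxcl14. Within prevention edgeR called 0 of 10 members (all genes 0.445% either way), with 0 at an unadjusted p under 0.05, and every member overlapped, with 0.92 ± 0.46 for Ccl2, 0.43 ± 0.66 for Ccl7, 0.34 ± 0.41 for Cxcl10 and 0.13 ± 0.39 for Cxcl14. The test of that contrast, dose by timing, called 0 of 10 members in edgeR (all genes 2.17% either way), with 5 members at an unadjusted p under 0.05. Cxcl14 was nearest, at 1.91 ± 0.56 (edgeR adjusted p = 0.0806, DESeq2 adjusted p = 0.0171, 0.0477 with the replicate number as a block). It passed without 20% prevention replicate 3 (2.58) and without 5% therapy replicate 2 (2.24). Ccl2 passed without 20% prevention replicate 2 (2.52) or 5% therapy replicate 2 (2.46), and Cxcl2 without 5% therapy replicate 2 (4.28). By the edgeR test the prevention and therapy arms are not shown to differ in dose response for these genes.

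Timing on its own, therapy minus prevention averaged over doses, called 0 of 10 members in edgeR (all genes 0%) and 0 in DESeq2, with 2 members at an unadjusted p under 0.05. The log2 differences ran from -1.05 ± 0.49 for Ccl7 to 0.06 ± 0.18 for Cxcl16. A p that misses the threshold does not show that prevention and therapy gave the same levels.

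**Figure D3:**
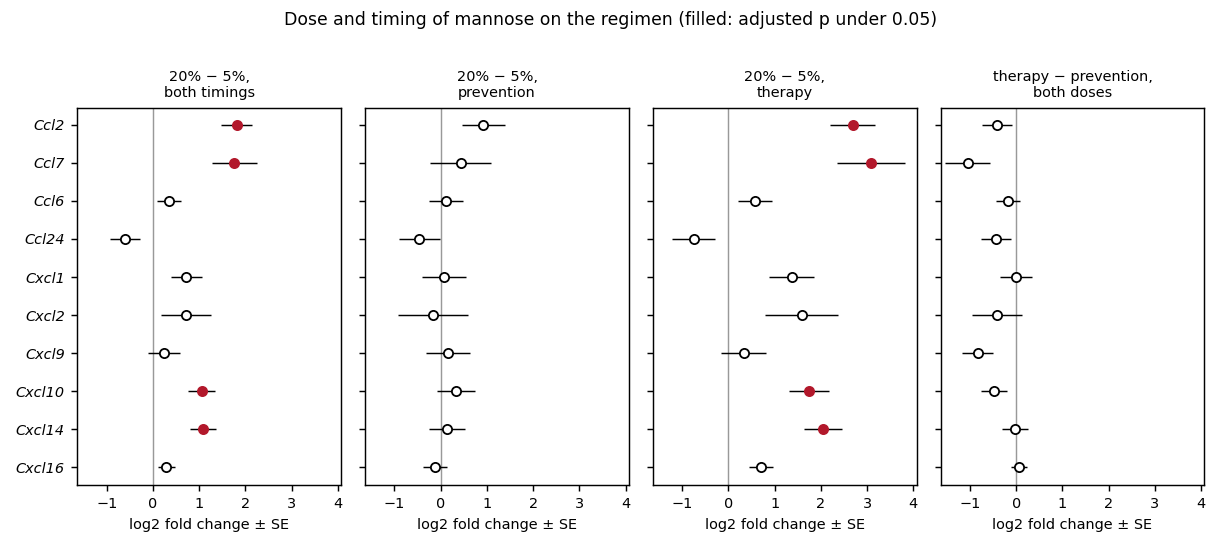
Log2 differences with SE between doses and timings of mannose on the regimen (first batch); filled points have an adjusted p under 0.05. The 4 filled genes of the pooled dose comparison, Ccl2, Ccl7, Cxcl10 and Cxcl14, are filled within therapy and open within prevention, and no gene is filled for timing.

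On normal diet mannose called no member. In the second batch 8 members were tested, since Ccl7 (0 to 12 raw counts) and Cxcl2 (0 to 12) were removed by the filter on low counts. With 5% mannose edgeR called 0 of 8 (all genes 0%) and with 20% mannose 0 of 8 (all genes 0.00542%). At an unadjusted p under 0.05 the counts were 0 and 1, and DESeq2 called 0 in both. Ccl2 was 0.491 and 0.591 CPM without mannose, 0.873 and 0.111 CPM with 5%, and 0.496, 0.355 and 0.0453 CPM with 20%. Cxcl10 was 2.21 and 2.74 CPM without mannose, 2.11 and 1.31 CPM with 5%, and 0.992, 1.49 and 2.4 CPM with 20%. For Cxcl10 every 5% value lay below both controls, and the 20% values overlapped with them. Cxcl14 was 1.96 and 3.15 CPM without mannose, 1.12 and 1.17 CPM with 5%, and 0.451, 1.78 and 2.76 CPM with 20%, again lower without overlap only at 5%. The log2 fold changes at 20% ran from -0.85 ± 1.19 for Ccl2 to 0.39 ± 0.50 for Cxcl1.

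Whether mannose acted differently on the regimen (prevention) and on normal diet was tested over all 25 libraries with a batch term. At 20% mannose 1 of 10 members was called, Cxcl10, with a difference of log2 fold changes of 2.12 ± 0.63 (edgeR adjusted p = 0.0474; all genes 2.26% higher, 5.67% either way). The call was lost in 9 of 18 alternatives, each of them leaving out 1 library, and the difference was lowest without 20% prevention replicate 2 (1.57, edgeR adjusted p = 0.165). The other libraries whose absence ended it were normal diet replicates 2 to 5, FAT-MASH replicates 2 and 3, and replicates 1 and 2 of normal diet with 20% mannose, with values of 1.87 to 2.27. Ccl2 at 2.45 ± 0.92 and Cxcl9 at 1.77 ± 0.66 were not called (edgeR adjusted p = 0.122 for both). At 5% mannose 0 of 10 were called by edgeR and by DESeq2 (all genes 0.524% either way), with 2 members at an unadjusted p under 0.05, and the difference was 1.69 ± 0.68 for Cxcl10 and 1.89 ± 0.76 for Cxcl14. Diet and batch are separated in this fit only through the 5 normal-diet libraries without mannose.

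Within groups, members moved together in part from mouse to mouse. Deviations of the log2 level from the group mean over the 18 first-batch libraries gave r = 0.76 for Ccl2 with Cxcl9, 0.74 for Ccl2 with Cxcl1 and 0.72 for Cxcl9 with Cxcl10. The neighbours Ccl2 and Ccl7 gave 0.52 and the neighbours Cxcl1 and Cxcl2 gave 0.43. Ccl6 went most closely with Cxcl16 (r = 0.70), the other member that was raised on the regimen and not called with mannose. Ccl7 with Cxcl2 gave 0.68. Cxcl14 ran from -0.31 with Ccl24 to 0.49 with Cxcl16 and was -0.07 with Ccl2. These are descriptions over libraries that share their depth and scaling within a library, and no test was made of them.

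**Figure D4:**
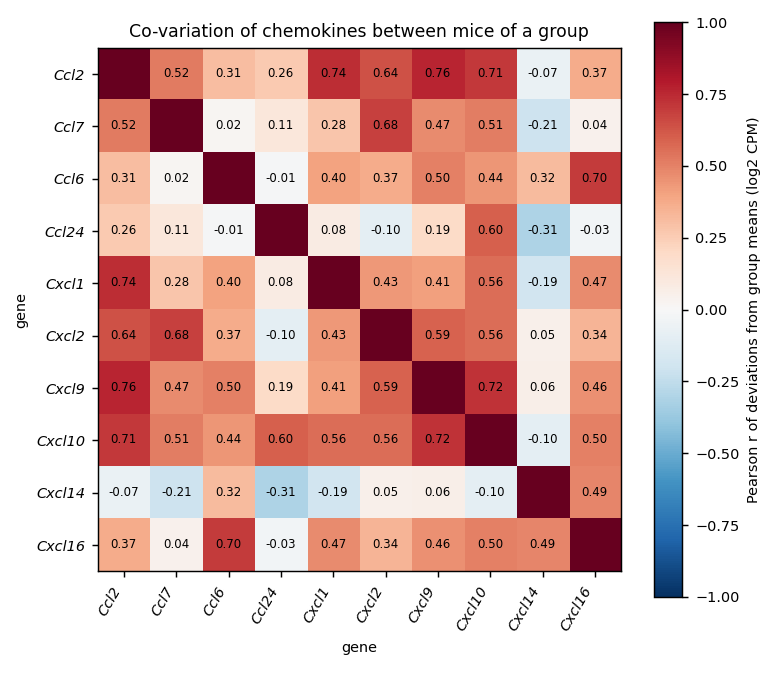
Correlation (r) between chemokines of the deviations of their log2 levels from the group means, over 18 first-batch libraries. The highest value is 0.76 for Ccl2 with Cxcl9, and the Cxcl14 row runs from -0.31 with Ccl24 to 0.49 with Cxcl16.

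The receptors and upstream regulators of these ligands were described from lists of known genes. Of 23 chemokine receptors 19 were tested, and those higher on FAT-MASH than on normal diet included Cxcr4 (2.39 ± 0.40), Ccr2 (2.06 ± 0.43), Cx3cr1 (1.77 ± 0.52) and Ackr1 (1.47 ± 0.46 on the log2 scale). Ccr2, the monocyte receptor of Ccl2 and Ccl7, was 1.83 ± 1.33 CPM on normal diet, 7.77 ± 1.56 CPM on FAT-MASH and 14.4 ± 5.36 CPM with 20% therapy (SD, n = 3 each). Its change from FAT-MASH to 20% therapy, 0.90 ± 0.40, was not called (edgeR adjusted p = 0.121). With 20% therapy 2 of 19 receptors were higher than on FAT-MASH, a share near the 10.2% of all genes. They were Cxcr2 (1.79 ± 0.60, edgeR adjusted p = 0.0379) and Cx3cr1 (1.69 ± 0.47, edgeR adjusted p = 0.0142). Cxcr2 is the receptor of Cxcl1 and Cxcl2, and it was also the one receptor higher at 20% than at 5% mannose (1.31 ± 0.42, edgeR adjusted p = 0.0367), 1 of 19 against 8.12% of all genes. In edgeR 0 of 19 receptors were called with 20% prevention, 5% prevention or 5% therapy (all genes either way 15.1%, 2.27% and 0.0358%). The counts at an unadjusted p under 0.05 were 2 with 20% prevention, 2 with 5% prevention and 1 with 5% therapy. Cxcr3, the receptor of Cxcl9 and Cxcl10, was 0.683 ± 0.223 CPM on normal diet and 0.675 ± 0.134 CPM with 20% therapy (SD, n = 3 each) and was not called in these comparisons. The median log2 fold change over the 19 receptors was 1.05 on FAT-MASH and -0.21 with 20% therapy, against 0.03 and 0 over all genes.

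Of 28 other chemokine ligands 20 were tested. On FAT-MASH 1 was higher, the neutrophil attractant Cxcl5 (3.62 ± 1.17), and 3 were lower, Cxcl11 (-1.11 ± 0.30), Ccl9 (-0.76 ± 0.20) and Cxcl12 (-0.49 ± 0.12 on the log2 scale). Of all genes 7.81% were higher in that comparison and 13.7% were called either way. With 20% therapy 3 of 20 were higher than on FAT-MASH, not far from the share of all genes (10.2% higher, 21.4% either way). They were Cxcl5 (3.82 ± 0.77), the membrane-bound ligand Cx3cl1 (2.17 ± 0.44) and Ccl9 (1.30 ± 0.20). Cxcl5 rose from 0.522 ± 0.447 to 7.17 ± 3.37 CPM and Cx3cl1 from 1.82 ± 0.599 to 8.12 ± 3.85 CPM (SD, n = 3 each). Cxcl5 (2.71 ± 0.75) and Cx3cl1 (1.58 ± 0.44) were called with 20% prevention too (all genes 6.83% higher). The one ligand that was lower with both 20% groups was Ccl27a, which has near-identical copies in the mouse genome and is uncertain (-0.92 ± 0.16 and -0.86 ± 0.16). Cxcl11, the third interferon-induced ligand of Cxcr3, was not called in any mannose group against FAT-MASH. The medians of the list were 0.56 on FAT-MASH and -0.20 with 20% therapy. In either 5% group against FAT-MASH edgeR called 0 of 20 (all genes either way 2.27% with prevention and 0.0358% with therapy). At an unadjusted p under 0.05 there were 4 with 5% prevention and 0 with 5% therapy.

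Of 24 inducers and processing genes 20 were tested, and 9 were higher on FAT-MASH (all genes 7.81% higher). The 4 with the smallest p were Il1r1, the interleukin 1 receptor (1.38 ± 0.21), Ifngr2, a chain of the interferon gamma receptor (0.89 ± 0.13), Tnfaip3, an NF-kappaB target that restrains it (1.63 ± 0.30), and Nfkbia, an inhibitor of NF-kappaB (0.88 ± 0.17). With 20% therapy 8 were higher than on FAT-MASH and 1 was lower (all genes 10.2% higher, 21.4% either way). Those with the smallest p were the NF-kappaB subunit Relb (1.5 ± 0.23, from 6.13 ± 0.582 to 17.3 ± 1.41 CPM), Dpp4, a peptidase that trims chemokines (-0.54 ± 0.10), the subunit Rela (0.55 ± 0.11) and Tnfaip3 (1.37 ± 0.29). With 20% prevention 4 were higher, Relb (1.28 ± 0.23), Ifngr2 (0.52 ± 0.13), Rela (0.39 ± 0.11) and Il1b (1.34 ± 0.44), and 1 was lower, Il1r1 (-0.69 ± 0.20). Of all genes 6.83% were higher in that comparison and 15.1% were called either way. With 5% prevention 1 of 20 was called, Il1r1 again (-0.80 ± 0.20; all genes 2.27% either way). With 5% therapy edgeR called 0 of 20 (all genes 0.0358% either way), with 2 at an unadjusted p under 0.05. The medians were 0.45 on FAT-MASH, 0.24 with 20% therapy and 0.22 with 20% prevention. Ifng itself was too low to be tested, with group means of at most 0.15 CPM in the first batch.

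Markers of leukocytes and liver cells are given beside the chemokines. Their sums are compared by overlap between libraries, which is a different measure from a call. The summed level of 10 neutrophil markers was 7.55 to 9.98 CPM on normal diet, 18.8 to 21.9 on FAT-MASH and 26.4 to 40.5 with 20% therapy. With 5% prevention it was 27.7 to 28.9 CPM, above every FAT-MASH library. No chemokine was called in that group, but Ccl7, Cxcl2, Cxcl9, Cxcl10, Cxcl14 and Cxcl16 also lay above every FAT-MASH library. The members Ccl2, Ccl6, Ccl24 and Cxcl1 overlapped. Of the neutrophil markers S100a9 reached 8.16 to 12.0 CPM with 20% therapy, while Ly6g was at 0 counts in 1 of those 3 libraries and at most 0.205 CPM. The 12 markers of recruited macrophages and monocytes summed to 1280 to 1470 CPM on normal diet, 1450 to 1900 on FAT-MASH and 1550 to 2370 with 20% therapy, but Fn1, which hepatocytes also make, was 46.3% to 91.5% of that sum in single libraries. The 11 genes without Fn1, a split made after the values were seen, summed to 132 to 237 CPM on normal diet, 332 to 580 on FAT-MASH and 534 to 1220 with 20% therapy. They summed to 620 to 792 CPM with 5% prevention, above every FAT-MASH library. They summed to 231 to 677 CPM with 5% therapy, where the library of replicate 3 was low for every chemokine as well. Of the defining markers Plac8 was 16.2 to 24.3 CPM, Chil3 2.1 to 5.38 CPM and Ly6c2 1.88 to 4.41 CPM with 20% therapy, against 11.0 to 18.4, 0.496 to 1.77 and 1.51 to 2.16 CPM on FAT-MASH. Among the 11 genes the mean of Spp1 rose most, from 82.8 CPM on FAT-MASH to 430 CPM with 20% therapy (135 to 668). The mean sum of the 11 went from 439 to 927 CPM, a rise that was mostly Spp1, and the cell source of Spp1 was not tested. Trem2 overlapped between these groups, at 8.45 to 20 and 11.8 to 21 CPM. Gpnmb overlapped too, at 25.6 to 68.1 and 22.5 to 50.1 CPM. Of the 11 genes only Gpnmb had a lower mean with 20% therapy. The 9 Kupffer cell markers summed to 192 to 262 CPM on normal diet, 468 to 782 on FAT-MASH and 357 to 904 with 20% therapy, so the mannose group spans the FAT-MASH range.

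The 11 T and NK cell markers summed to 7.52 to 10.3 CPM on normal diet, 5.03 to 7.44 on FAT-MASH and 7.77 to 8.36 with 20% therapy. The largest change between the first groups was in Cd4, from a mean of 3.48 CPM on normal diet to 0.42 CPM on FAT-MASH. The means of Cd3e, Cd3g, Trac, Gzma and Gzmb were also lower on FAT-MASH. Those of Cd3d, Cd8a, Nkg7, Klrb1c and Ncr1 were higher, so the markers did not move together. Among the 7 cholangiocyte markers 5 were called higher with 20% therapy (all genes 10.2% higher, 21.4% either way). Their sum went from 43.5 to 54.9 CPM on FAT-MASH to 51.8 to 125 CPM. The 7 hepatocyte markers summed to 86000 to 96200 CPM on FAT-MASH and 60500 to 68300 with 20% therapy, and 5 of them were called lower (all genes 21.4% either way). The 6 eosinophil markers, beside which Ccl24 is read, summed to 1.83 to 2.9 CPM on normal diet and 5.42 to 11.3 on FAT-MASH. Epx and Prg2, which define eosinophils, were at 0 in all 3 FAT-MASH libraries. The 8 stellate cell markers summed to 297 to 331 CPM on normal diet, 431 to 506 on FAT-MASH and 455 to 598 with 20% therapy. The 8 sinusoidal endothelium markers were at 256 to 281, 315 to 360 and 278 to 325 CPM in these groups. Platelet markers (5 genes) stayed between 5.06 and 9.63 CPM in all first-batch libraries. The 5 erythroid markers summed to 457 to 553 CPM on normal diet and 605 to 707 on FAT-MASH. The means of Hba-a1, Hba-a2, Hbb-bs and Hbb-bt were higher on FAT-MASH. That of Alas2 was lower, 97.1 against 137 CPM, and was not called (-0.49 ± 0.17, edgeR adjusted p = 0.0556). The erythroid sums were lower than on FAT-MASH without overlap at 338 to 515 CPM with 20% prevention and 285 to 534 with 20% therapy. The same held at 363 to 594 CPM with 5% prevention. With 5% therapy they overlapped (577 to 725 CPM). The hemoglobin genes Hbb-bs (-0.76 ± 0.23 and -0.79 ± 0.23) and Hbb-bt (-0.66 ± 0.20 and -0.83 ± 0.20 on the log2 scale), which are near-identical copies and uncertain, were called lower with 20% prevention and 20% therapy. Alas2, the first enzyme of heme synthesis in erythroid cells, was called lower with 20% therapy (-0.99 ± 0.17, edgeR adjusted p = 0.000273). On normal diet with mannose the neutrophil sum was 3.0 to 5.59 CPM, below the 6.48 to 7.68 CPM of the second-batch controls. The part of these cell types in the chemokine results was not tested.

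**Figure D5:**
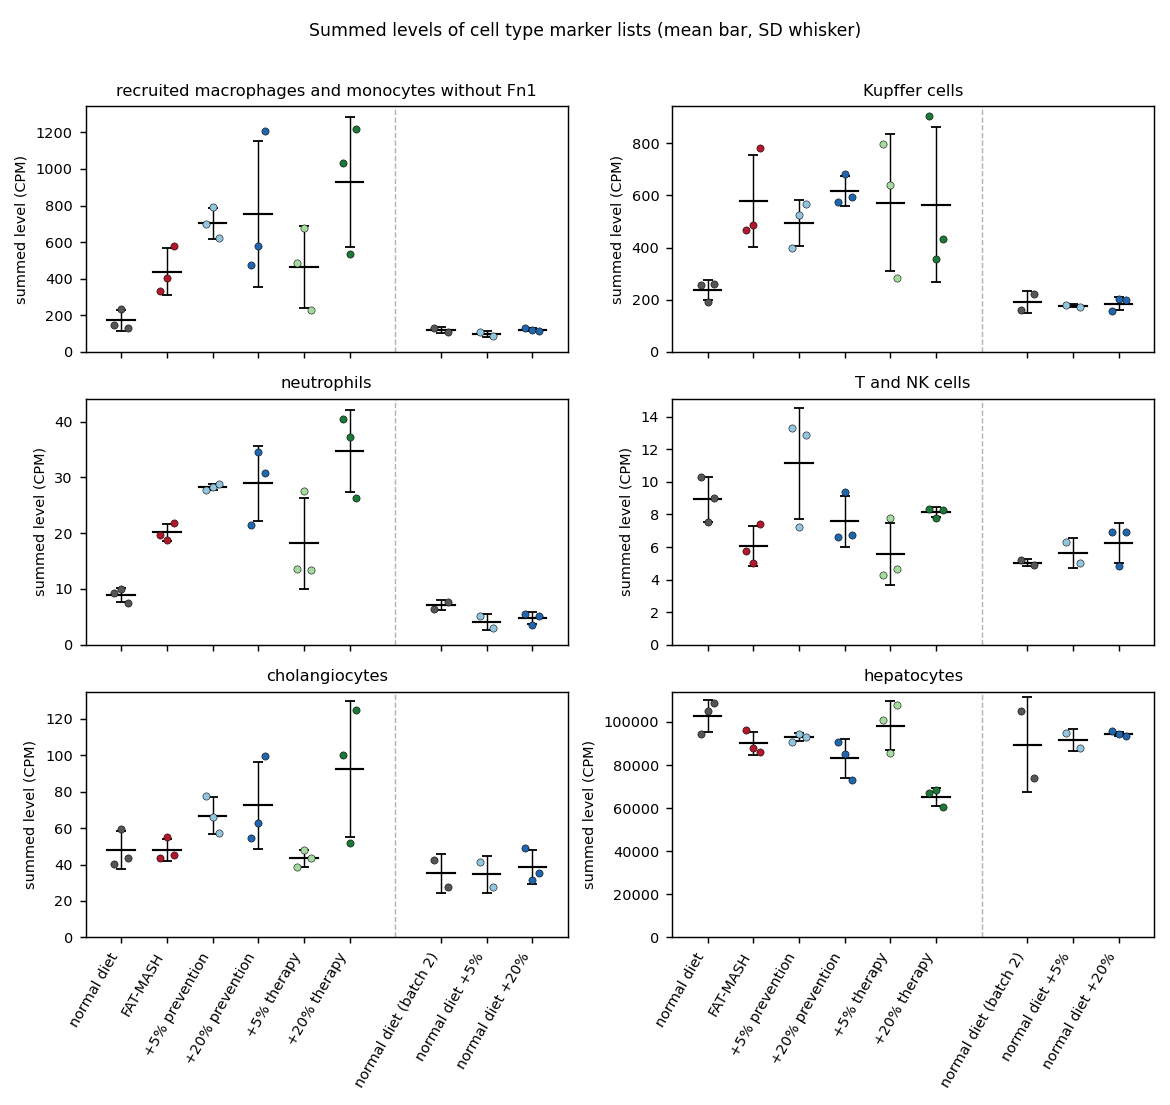
Summed CPM of cell type marker lists in every library, by group; each point is 1 mouse. The neutrophil sum is 7.55 to 9.98 CPM on normal diet and 26.4 to 40.5 CPM with 20% therapy, and the hepatocyte sum is lowest with 20% therapy.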

How the data were processed

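Poly-A RNA of whole liver was sequenced from 25 mice in 8 groups, in 2 batches. Per the submitters' processing notes the authors used STAR, the GRCm39 build and featureCounts 2.0.6. The header of the deposited table instead gives featureCounts 2.0.1, with GENCODE release 31. The deposited values are whole-number counts per gene, not normalized, for 56980 genes (52073 with a symbol), and each of the 25 columns was tied to its sample by the library name. The header shows a counting command without options for strandedness, pairs or multiply aligned reads, per the file headers. Counts of mates, antisense genes and near-identical copies are therefore uncertain as stated beside the genes. Replicates are separate mice as far as the labels say, so p-values measure the spread between these samples. Libraries of 1 group always differed by more than counting noise, with a chi-square per degree of freedom of at least 19.33.

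The main test was edgeR's quasi-likelihood test (version 4.0.16, R 4.3.3) with TMM scaling, filterByExpr, Benjamini-Hochberg adjustment, a threshold of 0.05 and no minimum fold. One fit covered the 18 libraries of the first batch (19571 genes) and another the 7 of the second (18462 genes). Differences between diets came from a fit of all 25 with batch as a term (21373 genes). SE is the log2 fold change divided by the square root of the F statistic. The scripts were tested on simulated data. Alternatives were DESeq2 1.42.0, RLE size factors, library totals, no filter on low counts, only the groups compared, the replicate number as a block, the batch term, and leaving out each library, and comparisons within a dose or a timing were added after the data had been seen. Co-variation used log2 of CPM plus 0.5.

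The members and gene lists were chosen with earlier results of these data known. The number of members called is given for every comparison, with values for some members only. Of each list, up to 4 genes with the smallest p past the threshold are named, and all where 5 or fewer passed, except for an item that is not reported here. Of each marker list the summed CPM is given, with defining markers. Ccl2, Ccl7, Ccl24 and Cxcl16 had no promoter window in the RefSeq table used here. That table is of GRCm38.p6, and no coordinate was converted between builds. Protein sequences were not used here.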

Additional observations from a re-analysis of the deposited data

Results flagged for a closer look

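The 20% mannose effect on Cxcl10 differed between the regimen (prevention) and normal diet by 2.12 ± 0.63 on the log2 scale (edgeR adjusted p = 0.0474), by a test of the difference itself over all 25 libraries. The effect was 1.51 ± 0.42 on the regimen, where all 3 mannose libraries were above all 3 controls, and -0.60 ± 0.46 on normal diet, where the groups overlapped. The regimen and the normal-diet mannose groups come from different batches. The call was lost on leaving out any of several single libraries. Without 20% prevention replicate 2 the difference was 1.57 (edgeR adjusted p = 0.165).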

How the results depend on the processing

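No call of a member was reversed. Of 2196 single-gene values under the alternatives 2099 kept their side of the threshold, 37 lost it and 60 gained it. With no filter on low counts more members were called: 5 for FAT-MASH against normal diet, 3 for 5% prevention and 5 for 20% prevention against FAT-MASH, 1 for therapy against prevention, 6 for dose by timing, 4 for 5% therapy against normal diet, and 3 and 5 for the difference of the 5% and 20% effects between diets. A fit of only the groups compared called 1 for 5% prevention. DESeq2 called 1 for dose by timing. Dose within prevention gave 0. The causes were not tested.

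Leaving out 1 library at a time, the number of members called ran from 0 to 4 for 20% prevention against FAT-MASH, from 2 to 5 for 20% against 5%, from 0 to 3 for dose by timing, from 1 to 3 for 5% therapy against normal diet and from 0 to 1 for the 20% difference between diets.

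The replicate numbers of the first batch showed no sign of pairing the mice. Deviations of same-numbered libraries had a median correlation of -0.028, against 0.011 for differently numbered ones, and 9 of 45 pairs were over 0.1. In the second batch, with the number in the aligned file name, 4 of 6 pairs were over 0.1. Deviations in a group of 2 mirror each other, so these pairs are not separate observations and cannot decide on pairing. With the replicate number as a block 1 member, Cxcl14, was called for dose by timing, and the other counts of members stayed within 1.5 times. All-gene counts under the second-batch block were 16 for 5% and 32 for 20% mannose on normal diet, against 0 and 1 without it.

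Over all genes, the number called moved by more than 1.5 times in these cases. For 5% prevention against FAT-MASH it was 445, and 949 with DESeq2 or 1254 with no filter. For 5% therapy it was 7, and 89, 339 or 1 with DESeq2, no filter or only the groups compared. For 20% therapy it was 4195, and 6520 with library totals, and for 20% against 5% it was 3334 and 5188, and 87 within prevention. For dose by timing it was 424, and 1053, 1364 or 722 with DESeq2, no filter or library totals. For therapy against prevention it was 0, and 21 with DESeq2 or 228 with no filter, 38 within 5% and 16 within 20%. For 5% and 20% mannose on normal diet it was 0 and 1, and 41 and 67 with DESeq2, 222 and 254 with no filter, 1 and 4 with library totals, and 0 at 20% with only the groups compared. For the differences between diets it was 112 and 1211, and 517 and 1818 with DESeq2, and 897 for the 5% difference with no filter. Scaling by library totals moved the median log2 fold change of all genes to 0.20 for 20% prevention and 0.30 for 20% therapy, and no member's call was reversed. Depth limits Ccl7 and Cxcl2, with 0 to 12 counts in the second-batch libraries.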
